A study of Mus musculus with 4 samples.

Results

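Ttr, Enpp2, Ptgds, Clu, Apoe, Sostdc1 and Ecrg4 are genes whose proteins leave the cell, and they are described here cell by cell as the secreted cargo genes led by Ttr. The 7 genes were chosen by name from measured values of these same cells, in which they had stood out as leading genes of a group of cells. They are 7 of the 15305 gene rows of the count table, and all 7 were found in it. Their levels and their joint presence are therefore descriptions, given with no test. The cells came from Penk-Cre Ai9 mice. In this line Cre under the control of Penk switches on the red reporter tdTomato for good, so a reporter-positive cell need not make Penk when it is sorted. The labels give the genotype as WT and name no treatment, and the age and number of the animals are not given in the sources used here. Striata with the subventricular zone, the neurogenic wall of the lateral ventricle, were dissociated and cells were sorted singly into plates, as tdTomato-positive and CD11b-negative in dataset A and as tdTomato-positive alone in dataset B. CD11b is a surface protein of microglia. Per dataset the labels give neuroblasts and quiescent neural stem cells of the subventricular zone as samples, but the names of the table's columns give only the dataset, plate and well, so no cell could be placed in a labelled sample.

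The choroid plexus is an epithelium that hangs in the brain ventricles, makes the cerebrospinal fluid and secretes carrier proteins into it. Ttr encodes transthyretin, which carries thyroxine and, bound to retinol-binding protein, retinol, and choroid plexus epithelium is its main source in the brain. Enpp2 encodes autotaxin, the secreted enzyme that makes lysophosphatidic acid. Ptgds encodes the synthase of prostaglandin D2, which is also the lipid carrier called beta-trace. Clu encodes clusterin and Apoe encodes apolipoprotein E, both of which travel on lipoprotein particles, and Apoe is a well-known product of astrocytes. Sostdc1 encodes a secreted inhibitor of BMP and Wnt signalling, and Ecrg4 encodes a precursor of secreted peptides known from choroid plexus. The labelled tissue lies next to the lateral ventricle, which holds a choroid plexus.

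In the GENCODE vM39 annotation of GRCm39 all 7 are protein-coding genes, on 7 different chromosomes. Enpp2 lies at chr15:54701324-54816288 on the minus strand with 25 exons in its canonical transcript, and Clu at chr14:66190200-66218999 on the plus strand with 9. Ptgds lies at chr2:25352795-25362601 (minus, 7 exons), Apoe at chr7:19430034-19434947 (minus, 4 exons), Sostdc1 at chr12:36364137-36368451 (plus, 2 exons) and Ecrg4 at chr1:43769754-43781743 (plus, 4 exons). Coordinates of Ttr are not given here. Exons of the annotated genes Gm16090 and Gm71725 lie over those of Ttr and Apoe on the opposite strand, and whether reads were counted by strand is not given in the sources used here, so a part of either count could belong to the partner.

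Because the members were found together in the same cells, the sequences before their start sites are shown where the RefSeq table (GRCm38.p6) held them, which was the case for 3 of the 7 genes. Each is the 250 bases before the first base of the transcript, 5′ to 3′ on the gene's strand. The capitals mark TAATCC or its reverse complement GGATTA, the core motif of Otx2-type homeodomain factors; Otx2 is a transcription factor of choroid plexus epithelium. Apoe has 3 listed starts, and the one shown is the only one with the motif before it.
Apoe, chr7:19699189-19699438, minus strand: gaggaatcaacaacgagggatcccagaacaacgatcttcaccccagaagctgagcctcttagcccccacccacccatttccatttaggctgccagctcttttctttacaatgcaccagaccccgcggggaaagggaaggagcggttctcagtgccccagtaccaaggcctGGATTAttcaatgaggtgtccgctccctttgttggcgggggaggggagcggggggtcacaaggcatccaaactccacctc
Ptgds, chr2:25469750-25469999, minus strand: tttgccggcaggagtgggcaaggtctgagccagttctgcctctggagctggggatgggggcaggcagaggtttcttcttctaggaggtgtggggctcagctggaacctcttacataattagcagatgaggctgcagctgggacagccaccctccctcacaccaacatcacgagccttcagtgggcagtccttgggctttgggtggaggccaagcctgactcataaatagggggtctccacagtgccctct
Ecrg4, chr1:43730352-43730601, plus strand: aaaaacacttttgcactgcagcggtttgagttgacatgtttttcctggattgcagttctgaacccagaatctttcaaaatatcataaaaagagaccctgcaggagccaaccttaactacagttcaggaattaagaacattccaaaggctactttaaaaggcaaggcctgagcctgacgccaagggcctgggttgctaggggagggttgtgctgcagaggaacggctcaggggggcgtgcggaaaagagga
The motif began 80 bases before the start of Apoe and was in neither the Ptgds nor the Ecrg4 window. On both strands, 6.25% of 32851 RefSeq windows of this length held it. A match in a window is a description and not a binding site. Otx2 itself reached 100 counts per 1000000 in 10 of the 82 cells.

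The table held raw read counts of 82 cells, 41 in each dataset. Totals per cell ran from 530630 to 7765650 in dataset A, whose cells all lay on 1 plate, and from 1235278 to 3339591 in dataset B, whose cells lay on 4 plates. The number of sorts and of animals behind each dataset is not given in the sources used here, so the cells of a dataset are not treated as replicates of it, and the sort gate, the plates and the animals cannot be told apart when datasets are compared. Levels are given as counts per 1000000 counts of the cell (CPM), and a cell is said to carry a gene at 100 CPM or more. The protocol counts PCR-amplified reads and mentions no molecular identifiers, so counts are not numbers of molecules, and the intervals below cover the counting of cells only.

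Cells were grouped by a tree built without the 7 genes and without any gene of the marker lists, to see in which kinds of cell the 7 genes lay. A class of 29 cells, 14 from dataset A and 15 from dataset B, was led by Kcnj13, Folr1, Fxyd1, Pcp4l1 and Prlr among genes that are not members, and 4 of its 10 leading genes were in the choroid plexus list. It is called choroid-plexus-like, as the class whose cells held on average the most genes of that list at 100 CPM or more. Its cells held 5 to 13 of the 20 genes of that list at 100 CPM or more (median 9), and no cell of the neuroblast-like class held more than 1. In the 15 dataset B cells of the class, 5 genes of the list had no count, namely Aqp1, Slc4a5, Wfdc2, Slc29a4 and Cldn2. In its dataset A cells 0 of the 20 were without a count. The neuroblast-like class of 37 cells, 12 and 25 by dataset, was picked in the same way by the neuroblast list and was led by Sox11, Dpysl2 and Map1b. The other 16 cells, 15 of them of dataset A, were mixed, and 5 of them form an astroglia-like cluster led by Gja1, Itih3, Sparcl1 and Gjb6. Classes are rebuilt from the counts and are not the study's labels, and the members' levels in them describe cells that the members had helped to single out. With 3000 variable genes in place of 1500 the class held 15 cells, of which 2 were of dataset A, while a division into 2 kept its 29 cells within a branch of 45 whichever number of genes was used. Dataset B's plates were uneven, with 10 of its 15 choroid-plexus-like cells on plate PL4. The class was also made up differently in the datasets. In a division of the tree into 8 it fell into a larger branch, to which dataset A gave 13 cells and dataset B 7 cells of plate PL4, and a smaller branch with 1 and 8 cells.

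Together the 7 genes took 24.8% of all counts in dataset A and 8.48% of those in dataset B. Of these member counts, Ttr and Enpp2 made up 95.0%. In the choroid-plexus-like class the share ranged over cells from 21.9% to 72.1% in dataset A, with a median of 43.9%, and from 2.86% to 38.9% in dataset B, with a median of 21.5%. The ranges overlapped, and the dataset A median lay above every dataset B cell. By branch, the dataset B cells ran from 21.5% to 38.9% in the larger branch (7 cells, median 31.3%) and from 2.86% to 22.7% in the smaller one (8 cells, median 9.37%), while the dataset A cells of the larger branch had a median of 46.7% (13 cells). The contrast between the datasets over the whole class therefore holds both levels within a branch and the unequal make-up by branch. In the neuroblast-like class no cell gave more than 0.896% of its counts to the 7 genes. The median cell of the whole of dataset A gave 1.60% and that of dataset B 0.169%, so the pooled shares rest on a minority of cells.

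**Figure D1:**
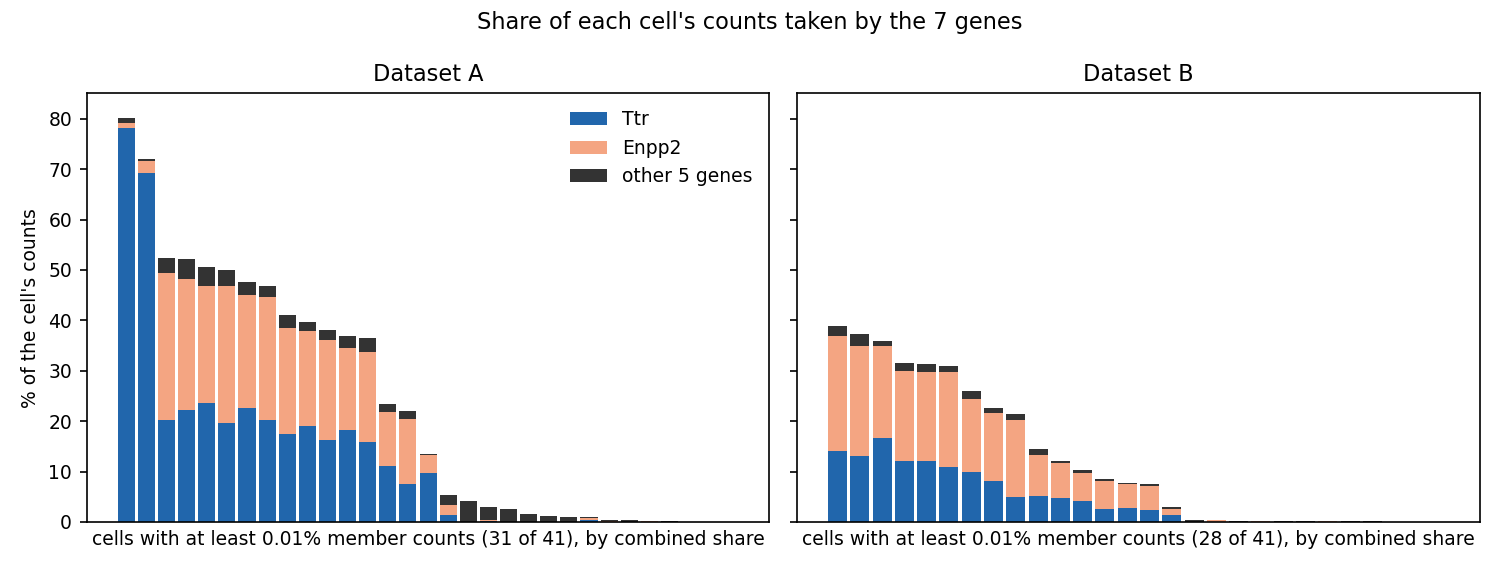
Share of each cell's counts (percent, bars from 0) taken by Ttr, by Enpp2 and by the other 5 genes together, for cells of dataset A (left) and dataset B (right) with at least 0.01% member counts, ordered by combined share. In 2 cells of dataset A the bar is nearly all Ttr, and most of the other tall bars hold both Ttr and Enpp2 in sizeable parts.

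Ttr took 16.1% of all counts in dataset A and 3.14% in dataset B. It reached 100 CPM in 22 of 41 dataset A cells (53.7%, exact 95% interval 37.4% to 69.3%) and in 16 of 41 dataset B cells (39.0%, 24.2% to 55.5%). In dataset B its levels fell into separate ranges. There, 22 cells had no Ttr count, 3 cells had 1 to 9 counts, and the 16 carriers all lay between 13811 and 166790 CPM. Dataset A filled the gap, with 6 cells from 10 to 100 CPM, 3 from 100 to 1000 CPM and 2 from 1000 to 10000 CPM below its 17 cells above 10000 CPM. All 29 choroid-plexus-like cells carried Ttr, at 75551 to 693020 CPM in dataset A (median 192865) and 13811 to 141007 CPM in dataset B (median 52305).

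A pair of dataset A cells stood apart for Ttr. The cell in well H6 gave 78.2% of its counts to Ttr and the cell in well A8 gave 69.3%, while the next highest cell gave 23.6%. A8, the deepest cell of the table, held 38.5% of the Ttr counts of dataset A and H6 held 22.0%. Enpp2 was low in both for a carrier of all 7 genes, at 9986 CPM in H6 and 22814 CPM in A8. Without these cells the 7 genes took 17.0% of the counts of dataset A. A8 fell in the choroid-plexus-like class and H6 among the mixed cells, and each held 5 of the 20 choroid plexus list genes at 100 CPM or more.

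Enpp2 took 7.48% of the counts of dataset A and 4.90% of those of dataset B, where it stood above Ttr. In dataset A the order rested on the 2 Ttr-rich cells H6 and A8, without which Ttr took 7.36% and Enpp2 8.36%. It was carried by 23 dataset A cells (56.1%, exact 95% interval 39.7% to 71.5%) and 20 dataset B cells (48.8%, 32.9% to 64.9%). In the choroid-plexus-like class it ran from 22814 to 291219 CPM in dataset A (median 205065) and from 12456 to 228293 CPM in dataset B (median 133975), ranges that largely overlap. No cell carried Ttr without Enpp2, while 5 cells carried Enpp2 without Ttr. All of those 5 were neuroblast-like. In the 4 of dataset B, Enpp2 was at 710.9 to 2915 CPM while Ttr had 0 counts in 3 of them and 0.810 CPM in the fourth. In the single dataset A cell, in well G3, Enpp2 was at 2434 CPM and Ttr at 14.9 CPM.

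The ratio of Ttr to Enpp2 counts varied little among most carriers. In the choroid-plexus-like cells of dataset A other than A8 it ran from 0.587 to 1.13 with a median of 0.847 (13 cells). In those of dataset B it ran from 0.321 to 1.11 with a median of 0.618 (15 cells). It was 30.4 in A8, 78.4 in H6 and 2.84 in the dataset A cell of well E10, and the lowest value of any carrier of both genes was 0.121, in the neuroblast-like dataset A cell of C9. Per kilobase of the canonical transcript, which sets aside that Enpp2 is the longer gene, Ttr was the highest of the 7 genes in all 26 cells that carried all of them, and Enpp2 came second in 24.

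**Figure D2:**
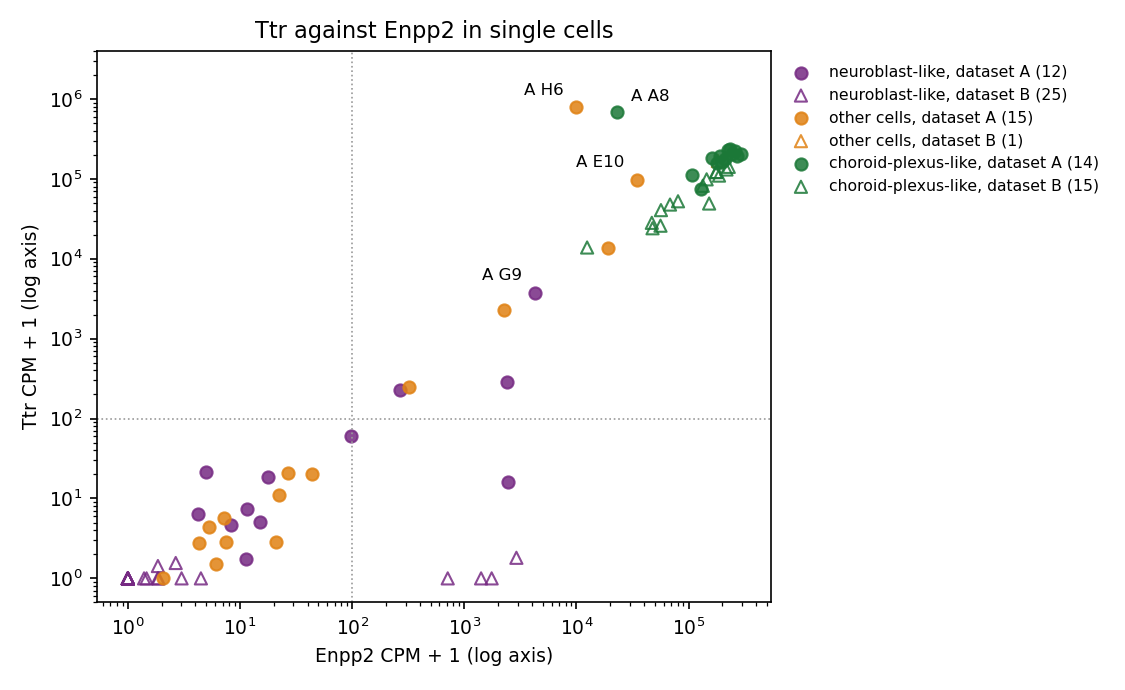
CPM + 1 of Ttr (vertical) against Enpp2 (horizontal), both on log axes, 1 point per cell, coloured by class, with filled circles for dataset A and open triangles for dataset B; dotted lines mark 100 CPM. Most carriers lie along 1 band, wells H6, A8 and E10 of dataset A lie above it, and 4 neuroblast-like cells of dataset B carry Enpp2 with almost no Ttr.

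Low Ttr and Enpp2 counts were found in nearly all dataset A cells that carried neither gene, and in fewer of those of dataset B. Among the 18 dataset A cells with both genes under 100 CPM, 17 had a Ttr count and 18 an Enpp2 count, 294 and 487 counts in all. Among the 21 such cells of dataset B, 2 had a Ttr count and 8 an Enpp2 count, 2 and 19 counts in all. On plate PL4, which held most of the choroid-plexus-like cells of dataset B, all 3 such cells had an Enpp2 count (9 in all) and 0 had a Ttr count. In the dataset A cells the pooled ratio of Ttr to Enpp2 was 0.604, against 0.881 in the dataset A carriers other than H6 and A8. Per 1000 Enpp2 counts these low cells had 8.21 Sostdc1 and 14.4 Ecrg4 counts, against 11.3 and 12.2 in those carriers, though only 4 Sostdc1 and 7 Ecrg4 counts lie behind the first pair. The neuroblast-like cell of well E11, with Enpp2 at 97.3 CPM, just under the level used, weighs heavily in these ratios. It held 119 of the 294 Ttr, 194 of the 487 Enpp2, 3 of the 4 Sostdc1 and 4 of the 7 Ecrg4 counts. The low cells include the 5 astroglia-like cells, which hold 570 of their 571 Ptgds counts, all in the cell of well H2, 31017 of 32738 Clu counts and 165847 of 169717 Apoe counts, of which 97897 lie in the cell of F4. In the other 13 low cells there were 2.42 Ptgds counts per 1000 Enpp2 counts, from 1 Ptgds count, against 14.5 in those carriers. Nearly all the Clu and Apoe counts of these 13 lay in the neuroblast-like cells of D8, with Clu at 1304 and Apoe at 1578 CPM, and G8, with Apoe at 885.6 CPM. Whether these low counts came from the cells in question or from others on their plate was not tested.

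Ptgds took 0.119% of the counts of dataset A and 0.0845% of those of dataset B. It was carried by 18 and 16 cells, and by 28 of the 29 choroid-plexus-like cells. In that class it ran from 0.410 to 4360 CPM in dataset A (median 3055) and from 490.6 to 4492 CPM in dataset B (median 1647). The low end in dataset A was a single cell, in well C12, with 1 Ptgds count beside 110580 CPM of Ttr. In the neuroblast-like class Ptgds was at 0 in 33 of 37 cells and reached 49.2 CPM at most. All but 1 of the 34 carriers also carried Ttr, and the exception was the astroglia-like cell of well H2, with Ptgds at 270.1 CPM.

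Clu and Apoe were also found outside the choroid-plexus-like class. Clu was carried by 41 cells, of which 29 were choroid-plexus-like, 5 neuroblast-like and 7 among the other cells. Apoe was carried by 48 cells, the most of any member, of which 28, 12 and 8 lay in these classes. The range of Apoe in the choroid-plexus-like cells was 1146 to 16688 CPM in dataset A (median 7351) and 0 to 9712 CPM in dataset B (median 3641). Clu ran there from 1036 to 13863 CPM in dataset A (median 7906) and from 232.2 to 4657 CPM in dataset B (median 1695). For both genes the dataset A cells, 13 of 14 of them of the larger branch, reached higher and the ranges overlapped.

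The 5 astroglia-like cells, all of dataset A, had high Apoe and almost no Ttr. Apoe was at 9594, 10021, 10723, 19295 and 35505 CPM in them. Clu was at 775.9 CPM or more in 4 of the 5 and at 0.859 CPM in the fifth. Ttr stayed between 1.81 and 19.6 CPM, Enpp2 between 4.29 and 25.5 CPM, and Sostdc1 and Ecrg4 at or below 0.982 CPM. The highest Apoe level of the whole table was in this cluster, above the 16688 CPM of the highest choroid-plexus-like cell. These cells held 11 to 15 of the 18 astroglia list genes of the table at 100 CPM or more, among them Gja1, Gjb6 and Itih3 in all 5.

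**Figure D3:**
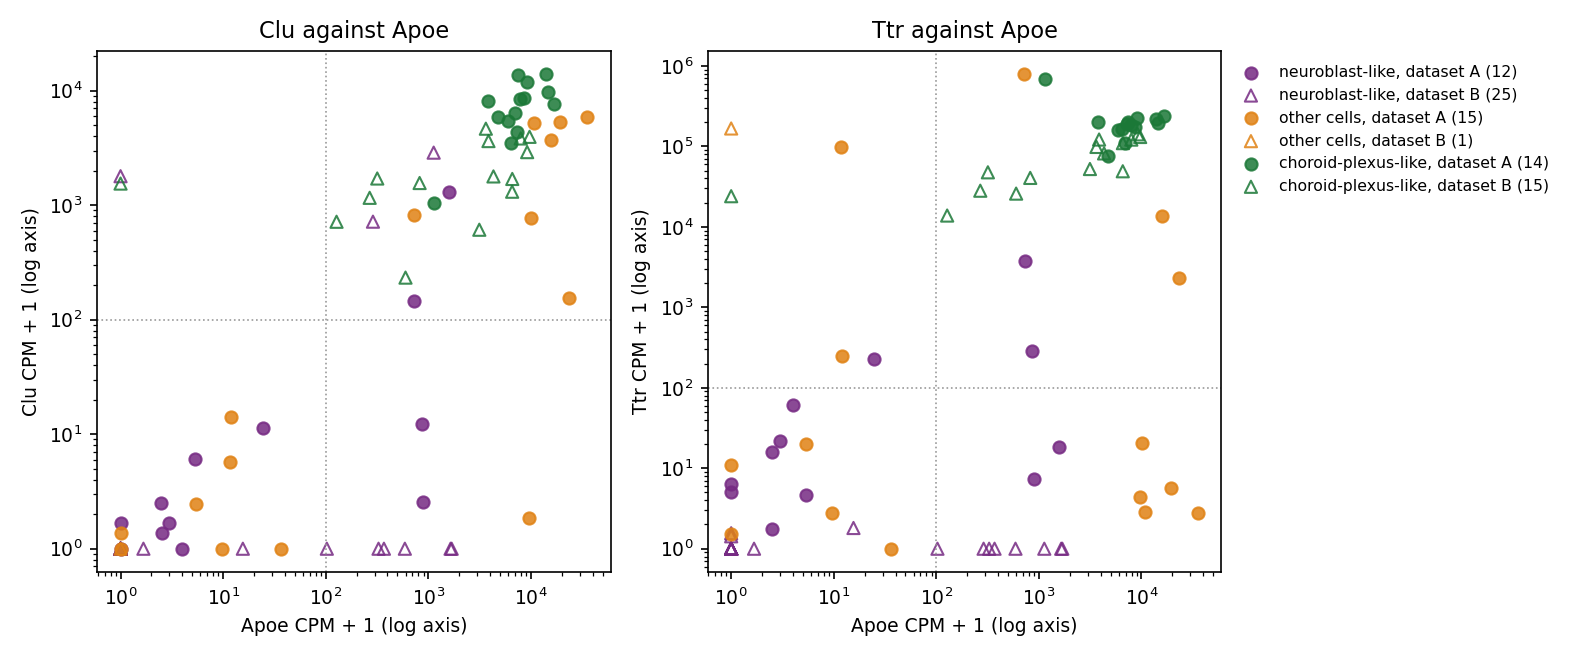
CPM + 1 on log axes of Clu against Apoe (left) and of Ttr against Apoe (right), 1 point per cell, coloured by class, with filled circles for dataset A and open triangles for dataset B; dotted lines mark 100 CPM. The choroid-plexus-like cells carry both genes of each panel apart from 1 cell without Apoe, with Clu or Apoe under 1000 CPM in some cells of dataset B, and a set of dataset A cells at about 10000 CPM of Apoe or more has almost no Ttr.

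Sostdc1 was the member carried by the fewest cells, 15 from dataset A (36.6%, exact 95% interval 22.1% to 53.1%) and 14 from dataset B (34.1%, 20.1% to 50.6%). Among the cells carrying all 7 genes it ran from 104.4 to 8457 CPM, a range of 81.0-fold, or 43.4-fold without the dataset A cell of F6, which holds the low end. Of the 29 choroid-plexus-like cells, 26 carried it and the other 3 had no Sostdc1 count at all. Ecrg4 was carried by 16 dataset A cells and 15 dataset B cells. Its range in the cells carrying all 7 genes was 337.8 to 4804 CPM, or 14.2-fold, and 10.0-fold without F6. Without that cell the 7 ranges lay between 8.89-fold for Ptgds and 59.7-fold for Clu. Both genes kept to cells with Ttr. Every one of the 29 Sostdc1 carriers and 31 Ecrg4 carriers also carried Ttr and Enpp2. In the 44 cells that did not carry Ttr, 4 cells had a Sostdc1 count and 3 an Ecrg4 count, at no more than 1.50 and 2.01 CPM.

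All 7 genes were carried by 26 cells, 15 of dataset A (36.6%, exact 95% interval 22.1% to 53.1%) and 11 of dataset B (26.8%, 14.2% to 42.9%). Of these, 17 lay outside plate PL4, and 10 had every member at 1000 CPM or more. Some but not all were carried by 32 cells and none by 24. By class, all 7 were carried by 24 of 29 choroid-plexus-like cells, 0 of 37 neuroblast-like cells and 2 of the 16 others. The number carried was spread unevenly between these ends. There were 12 cells with 1 member and 9 with 2, but 3, 1 and 3 cells with 3, 4 and 5 members, and 4 cells with 6. Of the 574 values of a member in a cell, 211 were 0 and 209 lay at 1000 CPM or more, while 31 lay from 10 to 100 CPM and 55 from 100 to 1000 CPM, on either side of the level used here.

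**Figure D4:**
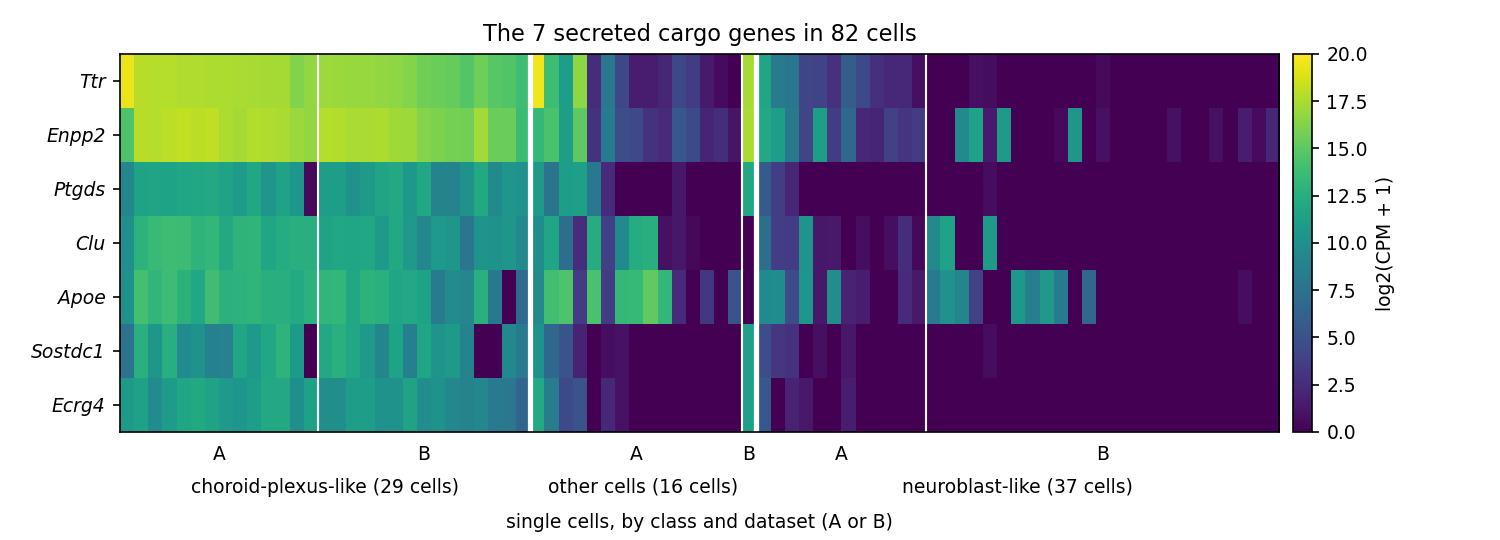
log2(CPM + 1) of the 7 genes (rows) in 82 cells (columns), by class and dataset and, within these, by the number of genes carried and by Ttr. The 29 choroid-plexus-like cells are bright in nearly all rows, Clu and Apoe also light up in other cells, and the neuroblast-like cells are mostly dark, with scattered Enpp2, Clu and Apoe values, low Ttr in dataset A and 3 dataset A cells that carry Ttr (225.6, 288.5 and 3734 CPM).

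Among the choroid-plexus-like cells, 5 lacked 1 or 2 members. Sostdc1 was missing, with 0 counts, from the dataset B cells of wells P1 H9 and PL4 B4. In the cell of P1 H4 the missing member was Ecrg4, which at 89.5 CPM lay just under the level used. The cell of P3 H6 had no Apoe count and 1544 CPM of Clu. The dataset A cell of C12 lacked both Ptgds and Sostdc1 while Ecrg4 stood at 2743 CPM. The missing member differed from cell to cell, and only Sostdc1 was missing from more than 1 of the 29 cells, namely from 3.

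Some cells outside that class held a large part of the set. The dataset B cell of P3 G5 gave 16.7% of its counts to Ttr and 18.3% to Enpp2 and carried Ptgds, Sostdc1 and Ecrg4, but had 0 counts of Clu and of Apoe. It had the fewest genes of dataset B, 877, and 1 choroid plexus list gene, Kcnj13, at 100 CPM or more. The dataset A cell of F6 carried all 7 genes, with Ttr at 13798 CPM, beside 15 of 18 astroglia list genes. The cell of E10 had Ttr at 97828 CPM, Enpp2 at 34457 CPM and Ptgds at 2453 CPM, and no other member above 34.3 CPM. The neuroblast-like cell of G9, with the most genes of the table (4197) and 17 of the 20 neuroblast list genes at 100 CPM or more, had Ttr at 3734, Enpp2 at 4236, Apoe at 727.6 and Clu at 145.4 CPM. Whether F6 and G9 were wells with more than 1 cell was not tested.

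The most frequent partial sets were small ones. Apoe alone was carried by 7 cells, 6 of them neuroblast-like and 1 astroglia-like. Clu and Apoe without the other 5 were carried by 6 cells, 3 neuroblast-like and 3 astroglia-like. Enpp2 alone was carried by 4 cells, Ttr with Enpp2 alone by 2, Enpp2 with Apoe by 1 and Clu alone by 1. In the neuroblast-like cells the maxima were 1691 CPM for Apoe, 2877 CPM for Clu and 4236 CPM for Enpp2. The Enpp2 maximum lay under every choroid-plexus-like cell, while those of Apoe and Clu lay within the range of the choroid-plexus-like cells of dataset B.

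Over all 82 cells the Pearson correlation of log2(CPM + 1) was positive for all 21 pairs of members, from 0.56 to 0.97 with a median of 0.79. Ttr and Ecrg4 made the closest pair (0.97), followed by Ttr with Enpp2 (0.94) and with Ptgds (0.94), and Apoe with Sostdc1 the least close (0.56). These values, given as descriptions over cells that share plates and the total they are scaled to, follow which cells carry the set, by which the genes were chosen. Within the 26 cells carrying all 7 genes the correlations ran from 0.12 to 0.73, with 5 of 21 pairs at 0.5 or more. Clu with Apoe was at 0.73 there and Ttr with Ecrg4 at 0.71, an order that turned with the scaling (0.76 and 0.86 with the total without the members). Without the 2 Ttr-rich cells H6 and A8, Clu with Apoe was at 0.67, below Ttr with Enpp2 at 0.96, and at 0.17 in dataset A. Also without the cell of F6, Clu with Apoe was at 0.43 in dataset A, and Ttr with Ecrg4 went from 0.72 to 0.27 there.

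Ttr and Enpp2, so close over all cells, had a correlation of 0.13 in those 26 cells. It was -0.04 in the 15 of dataset A and 0.98 in the 11 of dataset B. Without H6 and A8 it was 0.97 in dataset A and 0.96 in the 24 cells of both datasets, so these 2 cells set the low value. Also without F6, which has the lowest Ttr of the rest, it was 0.78 over 12 cells of dataset A. Ttr with Apoe was at -0.61 in dataset A and 0.88 in dataset B, and the dataset A value also rests on few cells, at -0.18 without H6 and A8 and 0.54 also without F6. Where the 2 Ttr-rich cells give most of their counts to Ttr, all other CPM values there are lowered by the scaling itself. Scaled to the total without the members, Ttr with Enpp2 was at 0.41 in the 26 cells and 0.18 in those of dataset A, and at 0.98 without those 2 cells. By that scaling 13 of 21 pairs were at 0.5 or more, and 16 of 21 also without those 2 cells.

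Outside the set, Kcnj13, a potassium channel of choroid plexus epithelium, had the level most like that of Ttr (r = 0.93), Enpp2 (0.90), Ptgds (0.88), Sostdc1 (0.89) and Ecrg4 (0.97), among 3237 genes with 10 counts or more in at least 10 of the 82 cells. It reached 100 CPM in 31 cells, all of them Ttr carriers. Folr1, a folate receptor that moves folate into the cerebrospinal fluid, came second for these 5 members, at 0.90 with Ttr. The third place went to Fxyd1, a regulator of the sodium pump, for Ttr, Ptgds and Ecrg4, to Chchd10, a mitochondrial protein, for Enpp2 and to Prlr, the prolactin receptor, for Sostdc1. Clu and Apoe had another first gene, Fxyd1, at 0.85 and 0.74. They were followed by Psap, which encodes the secreted and lysosomal prosaposin, and Kcnj13 for Clu (0.77 and 0.76) and by Cd63, a protein of endosomal vesicles, and Prlr for Apoe (0.70 and 0.67).

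Between the choroid-plexus-like and the neuroblast-like class, the pooled CPM of all 7 members was at least 4-fold higher in the former in both datasets, where 6.87% of 8692 genes with 10 CPM in any of the 4 pools passed the same rule. This contrast is the one that singled the members out, and nothing is read from it. Apoe had the smallest difference in dataset A (log2 4.50) and Clu in dataset B (3.40), while Ttr had 9.60 and 16.03. The Ttr value of dataset B compares 70890 CPM with 0.0585 CPM, or 3 counts in 25 cells, and depends on the pseudocount of 1.

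Other secreted proteins of choroid plexus, from a list without the members, shared the pattern in part. Of its 20 genes 16 were in the table and 12 reached 10 CPM in a pool, and 7 of these 12 were at least 4-fold higher in the choroid-plexus-like class in both datasets and 0 lower. The median log2 differences were 6.59 in dataset A and 3.72 in dataset B, against 0 and -0.64 over all genes. Trf, which encodes the iron carrier transferrin, stood at 2634 and 952.7 CPM in the class of datasets A and B against 1.13 and 1.03 CPM in the neuroblast-like class. Igfbp2, which binds insulin-like growth factors, stood at 188.6 and 1302 CPM against 0.345 and 0 CPM. B2m, Sparc, Timp3, Tgfb2 and Sod3 also passed. The contrast leaves out the mixed cells. In those of dataset A, B2m was at 2833 CPM, against 188.9 and 108.7 CPM in the class of datasets A and B. Sparc was at 1762 CPM in them, against 395.0 and 213.5 CPM. Timp3 (252.2 CPM) lay between its class values. Trf (424.5 CPM), Igfbp2 (29.0 CPM), Tgfb2 (4.51 CPM) and Sod3 (2.78 CPM) lay below theirs. Cst3, the protease inhibitor cystatin C, was at 100 CPM or more in 65 of the 82 cells and did not pass, with log2 differences of 1.11 and 2.06, and App was near equal (0.61 and 0.65). No gene of this list took as many counts as Ttr or Enpp2.

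Genes that act with Ttr were partly in the same cells. Of 6 thyroid hormone and retinol genes that reached 10 CPM, 3 were at least 4-fold higher in the choroid-plexus-like class in both datasets and 0 lower. Among them was Slco1c1, a thyroxine transporter, at 1137 and 1003 CPM against 5.62 and 0 CPM. Thra, a thyroid hormone receptor, was at 0 and 36.9 CPM there, against 48.4 and 116.2 CPM. The other receptor of the list, Thrb, went the other way in dataset B, at 0 and 179.1 CPM against 0 and 38.8 CPM. It reached 100 CPM in 3 cells, 2 of them choroid-plexus-like.

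For the partner genes of the other members, 16.7% of the 8692 genes tested were at least 4-fold lower in the choroid-plexus-like class in both datasets, beside the 6.87% that were higher. Among 5 genes of lysophosphatidic acid handling, Plpp1, a lipid phosphatase, passed upward at 152.4 and 91.5 CPM against 0.0493 and 0 CPM, and its relative Plpp3 passed downward with 0 CPM in the class. The receptors Lpar1 and Lpar6 were at or below 24.1 CPM in the choroid-plexus-like pools. None of the 5 prostaglandin genes in the table reached 10 CPM in a pool. Of 6 lipoprotein genes 0 were higher and 1 lower, a share near that of all genes. It was the Apoe receptor Lrp8, at 41.0 and 20.6 CPM against 533.5 and 384.3 CPM. The receptors Lrp1 and Vldlr were higher in the class in dataset A and lower in dataset B, as was the lipid exporter Abcg1. Of 4 BMP and Wnt partners of Sostdc1 0 were higher and 2 lower, the co-receptor Lrp6 and the receptor Bmpr2, and of the proprotein-processing enzymes the only gene tested, Pcsk7, was lower. With detection in as few cells as this (Bmpr2 in 7 and Lrp6 in 4 of 82 cells at 100 CPM), single cells set these pooled values.

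Markers of other cell types were read in the same classes. Of the 18 astroglia list genes in the table, the choroid-plexus-like cells held 0 to 3 at 100 CPM or more. The summed share of these genes was 0 to 0.389% of a cell's counts, against 3.53% to 8.55% in the astroglia-like cells. In the class, 11 of the 18 were at 0 in dataset B, among them Gja1, Gjb6 and Aqp4, and only Aqp4 was at 0 in dataset A. Other genes of the list were present, with Sox9 at 100 CPM or more in 13 of the 29 cells, Slc7a10 in 7 and Glul in 6. Sox9 stood at 61.3 and 514.9 CPM in the class of datasets A and B, against 142.3 and 32.8 CPM in the neuroblast-like class. The microglia list summed to at most 0.141% of a choroid-plexus-like cell's counts and the neuroblast list to at most 0.172%. Of the 8 ependymal list genes in the table, 7 were tested and 4 were at least 4-fold higher in the choroid-plexus-like class in both datasets, namely Rsph1, Mlf1, Cfap126 and Dynlrb2, and the list's summed share was 0 to 0.308% per cell. The other 3 did not pass. Foxj1, the master factor of motile cilia, reached 100 CPM in 1 cell, Ak7 was at 0 CPM in the class in dataset A, and Hydin was at 63.6 CPM there against 178.9 CPM in the neuroblast-like class. The part of ependymal cells in the members' levels was not tested. By the same rule 14 of 20 tested choroid plexus genes were higher and 0 lower, and 19 of 20 neuroblast genes were lower and 0 higher. The classes were picked by these same lists, so nothing is read from those counts. Of 13 tested astroglia genes 2 were lower, a share near the 16.7% of all genes, and 0 higher. The oligodendrocyte lineage list had 2 of 5 lower, the striatal projection neuron list 1 of 5 higher and 1 lower, and the leptomeningeal and vascular list (1 tested) and the proliferation list (2 tested) had 0 either way. Penk, whose promoter drives the Cre, reached 100 CPM in 1 of the 29 choroid-plexus-like cells and in 0 of the 26 cells carrying all 7 genes.

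Within the choroid-plexus-like class all 7 members had lower pooled CPM in dataset B than in dataset A, but this did not hold for every member within the larger branch of the class. There, over 13 and 7 cells, Ttr (log2 -1.46), Clu (-1.18), Ecrg4 (-0.88) and Apoe (-0.12) were lower in dataset B, and Enpp2 (0.06), Ptgds (0.19) and Sostdc1 (0.45) were higher, with a median over all genes of 0.61. Also without A8, the deepest cell, Ttr was at -0.78, Clu at -1.50 and Sostdc1 at 0.11, and only Clu was at least 2-fold lower. Of the 4283 genes compared there, 36.9% were at least 2-fold lower. Enpp2 (-0.26) and Ptgds (-0.09) turned to lower in dataset B without that cell, so that 6 of the 7 members were lower. With plate PL4 as the only plate of dataset B, and both branches, Sostdc1 was higher (log2 0.17) and the other 6 lower. On that plate the members lay between -2.74 and -0.87 relative to the median of all genes. Over the whole class Ttr stood at 286710 CPM in dataset A and 70890 CPM in dataset B, a log2 difference of -2.02, and Clu at 6931 and 2040 CPM (-1.76). Ecrg4 (-1.21), Apoe (-0.95), Enpp2 (-0.55), Ptgds (-0.26) and Sostdc1 (-0.20) followed. At least 2-fold lower were 3 of the 7, Ttr, Clu and Ecrg4, and 0 were 2-fold higher, while of 5808 genes 19.0% were 2-fold lower and 60.8% 2-fold higher in dataset B. The median over all those genes was 1.96, and relative to it the members lay between -3.97 for Ttr and -2.15 for Sostdc1. When the total was taken without the members the median of all genes was 1.38, the members lay between -4.02 and -2.20 relative to it, and 5 of 7 were 2-fold lower. By that total 24.0% of 5994 genes were 2-fold lower. Without the deepest cell of each dataset, A8 in dataset A, the Ttr difference was -1.25. Cell by cell the ranges of the datasets overlapped for every member. Gate, plates and animals cannot be told apart in this difference, and over the whole class the make-up by branch differs with them.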

How the data were processed

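Single cells sorted from Penk-Cre Ai9 mice were sequenced after template switching and PCR preamplification, per the labels' protocols. The authors deposited whole-number read counts per gene and cell, not normalized. The submitters' processing notes name FastQC 0.12.1, STAR 2.7.10b, featureCounts, Subread 2.1.1 and the builds GRCm39 and mm10, with no role or order. Of 15305 gene rows, 1997 were at 0 in all 82 cells. No cell was left out and no doublet caller was run.

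Counts were scaled to CPM and taken as log2(CPM + 1). Classes came from a Ward tree on 10 principal components of the 1500 most variable genes, chosen from the 7896 genes found in 5 cells or more, without the members and the 199 list entries. The division into 3 gave the classes (mean silhouette 0.255). The division into 8, the highest of 3 to 8 at 0.272, gave the astroglia-like cluster. Class contrasts use pooled CPM per dataset. No p-value is given, because the members were chosen from these cells and the number of sorts per gate is not given. Intervals of shares of cells are exact (Clopper-Pearson). The members and the 16 lists were chosen with earlier results of these data known. Genes were named by rule: the members, the 3 genes closest to each by Pearson correlation, the 4 highest of each list, and partner genes at 100 CPM in 10 cells; other genes were named after their values were seen, among them Penk, Foxj1, Gjb6, Aqp4 and Itih3. Python 3.11.15, numpy 2.4.6, pandas 2.3.3, scipy 1.17.1, scikit-learn 1.9.0 and matplotlib 3.10.9 were used. Some genes of the lists are not reported here.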

Additional observations from a re-analysis of the deposited data

How the results depend on the processing

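The 26 cells carrying all 7 genes became 10 at 1000 CPM and 17 without plate PL4, and were 25 to 32 under the other settings. The 24 cells carrying no member became 13 at 10 raw counts and 7 at 1 raw count. The 32 cells carrying some became at most 43. The combined share of 24.8% in dataset A was 1.60% in the median cell, 20.2% without the cell with the most member counts and 17.0% without the 2 Ttr-rich cells. That of 8.48% in dataset B was 0.169% and 7.63% under the first pair of these settings. All 21 pairs stayed at 0.5 or more over the cells kept under each of the 6 alternatives run. Within the cells carrying all 7 genes, 5 pairs reached 0.5, against 13 with the total without the members, 9 in dataset A, 13 in dataset B and 10 without the 2 Ttr-rich cells. In dataset A without these it was 12, 13 with the total without the members, and 6 also without F6. The class of 29 cells, 24 of them with all 7 genes, had 20 and 15 with 500 variable genes, and 15 and 10 with 3000. The division into 2 gave 45 cells, 26 of them with all 7 genes, with 500, 1500 or 3000 genes. The 3 members at least 2-fold lower in dataset B were 5 with the total without the members, with or without the deepest cells. The share of all genes that much lower was 19.0% at first, and 24.0% and 25.3% with that total. Within the larger branch of the class 2 members were that much lower, and 1 also without the deepest cell of dataset A. The shares of all genes were 36.1% and 36.9% there. In that branch Enpp2 and Ptgds were 0.06 and 0.19 higher in dataset B on the log2 scale and Sostdc1 0.45 higher. Also without the deepest cell of dataset A, the first pair turned to lower, with Enpp2 at -0.26 and Ptgds at -0.09, and Sostdc1 was at 0.11. On plate PL4 alone Sostdc1 was 0.17 higher on the log2 scale in place of 0.20 lower. The alternatives on the 2 Ttr-rich cells, F6, H2, the astroglia-like cells, PL4, the larger branch, the division into 2, and the total without the members with the deepest cells also left out were chosen after seeing the data. The causes of these changes were not tested. Cells thinned to 500000 counts gave 26, 32 and 24 cells carrying all, some and no members, the numbers of the unthinned cells.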

Other observations

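The 24 cells that carried no member were 19 neuroblast-like cells and 5 of the other cells. Among the latter, 1 dataset A cell gave 42.9% of its counts to the oligodendrocyte lineage list. The cell with the largest microglia list share, 2.91%, was the dataset A cell of well G7, which carried Ttr at 245.5 CPM and Enpp2 at 320.4 CPM and no other member. Ppp1r1b, which encodes the phosphatase inhibitor DARPP-32 and was listed here as a gene of striatal projection neurons, was at 100 CPM or more in 18 cells, 16 of them choroid-plexus-like, and in 12 of the 26 cells carrying all 7 genes. Of the other genes of that list, Pde10a and Bcl11b reached 100 CPM in 0 choroid-plexus-like cells, and Penk and Rgs9 in 1 each.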
